A study of Mus musculus with 18 samples.

Results

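The cells described here are iPax3 cells in which at least 1 Myog transcript was counted. They were chosen by their Myog count alone, in the first of the deposited iPax3 single-cell matrices, so the Myog count describes the choice and is not a result. Of 2931 iPax3 cells, 1517 held at least 1 Myog molecule and 1414 held 0. Molecules were counted by unique molecular identifiers (UMIs), short tags that let each captured transcript be counted once. A level is given in CPM, the UMIs of a gene summed over a set of cells scaled to a total of 1000000 UMIs of that set.

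Myog encodes myogenin, a basic helix-loop-helix transcription factor of the family that also holds Myod1 and Myf5. These factors pair with E proteins and bind E-box sequences, and myogenin acts late, when committed myoblasts leave the cell cycle and turn on the genes of the contractile apparatus. Its own promoter is a textbook example of this circuit, with E-boxes and an A/T-rich element of the kind bound by MEF2 proteins.

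iPax3 cells are mouse myogenic progenitors derived from embryonic stem cells. Vcam1+Flk1- cells were sorted from embryoid bodies and then expanded for 3 passages under doxycycline (Dox) and the growth factor bFGF. The other single-cell library holds adult satellite cells, labelled Pax7-ZsGreen, from the tibialis anterior muscle of animals aged 3 months. Bulk libraries cover iPax3 and iPax7 cultures made by the same protocol, embryonic (E10.5) and fetal (E14.5) myoblasts of the strain written My5Cre Rosa26YFP, and neonatal satellite cells of Pax7-ZsGreen hindlimb muscle at postnatal day 3, with 3 libraries in each of the 5 groups. All iPax3 cells described here come from 1 library of 1 culture, and the labels name no clone. There is no replicate of the contrast between cells with and without Myog, so no test is made, and each interval is an exact 95% interval that covers counting error only.

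The promoters of 3 genes are shown because Myog defines the cells, Mylpf marks them and Myl1 had the largest ratio among the abundant genes. Each is the run of 250 bases before the RefSeq start of the gene (build GRCm38.p6), 5′ to 3′ on the gene's strand, with E-boxes (CANNTG, the same on both strands) and the A/T element TATATTTA, searched on both strands, in capitals. The Myog run lies at chr1:134289754-134290003 on the plus strand and the Mylpf run at chr7:127211358-127211607 on the plus strand. The Myl1 run lies at chr1:66945057-66945306 on the minus strand. RefSeq starts differ from the GENCODE gene spans. The Mylpf and Myl1 runs lie inside their GENCODE spans, 127208890 to 127214298 and 66924295 to 66945404. The Myog run ends past its GENCODE start, 134289989.
Myog: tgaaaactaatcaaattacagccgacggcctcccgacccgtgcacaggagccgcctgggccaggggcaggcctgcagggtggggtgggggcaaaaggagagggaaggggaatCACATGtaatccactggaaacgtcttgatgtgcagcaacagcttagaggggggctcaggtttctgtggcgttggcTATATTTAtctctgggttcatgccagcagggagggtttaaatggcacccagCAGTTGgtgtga
Mylpf: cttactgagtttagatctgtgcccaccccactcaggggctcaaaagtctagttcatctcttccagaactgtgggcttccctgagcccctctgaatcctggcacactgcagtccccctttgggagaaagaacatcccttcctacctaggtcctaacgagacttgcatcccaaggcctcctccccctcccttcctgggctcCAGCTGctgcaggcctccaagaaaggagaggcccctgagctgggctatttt
Myl1: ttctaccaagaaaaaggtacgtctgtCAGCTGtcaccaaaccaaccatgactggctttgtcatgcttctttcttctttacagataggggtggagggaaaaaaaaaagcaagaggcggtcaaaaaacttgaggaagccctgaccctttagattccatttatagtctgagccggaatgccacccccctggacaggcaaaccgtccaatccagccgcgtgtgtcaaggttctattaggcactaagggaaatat

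The Myog run holds CACATG 138 bases and CAGTTG 12 bases before the start, with TATATTTA between them at 63 bases. Mylpf and Myl1 each hold 1 E-box, CAGCTG, at 51 and 224 bases. Any CANNTG is common, being present in 66.2% of 32851 RefSeq promoter runs of this length, whereas CAGCTG is present in 13.0% and TATATTTA in 1.12%. Of the 12 genes with the largest ratios between cells with and without Myog (named below), 10 had a RefSeq promoter, and 9 of these held CANNTG, 6 held CAGCTG and 2 held the CArG box bound by serum response factor (1.47% of all runs), while 0 held TATATTTA. Of 10 matched genes among the 12 with the smallest ratios, 5 held CANNTG, 2 held CAGCTG and 0 held the CArG box or TATATTTA. A gene with several starts was counted when any of its runs held the letters, whereas the shares of all runs count each run once. The counts of genes and the shares of runs therefore cannot be set against each other. The genes were also picked by their ratios in these same data. A match is a description, not a bound site. Most of the 12 genes with the largest ratios reached the minimum for naming, 100 CPM, only in cells with Myog.

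Myog was counted in 51.8% of iPax3 cells (Clopper-Pearson interval 49.9 to 53.6%). The count was low in most of them. Exactly 1 UMI was found in 646 cells, 2 to 4 in 513 and 5 or more in 358, and the highest count was 39. The 871 cells with at least 2 UMIs made up 29.7% of all cells (28.1 to 31.4%), and the 358 with at least 5 made up 12.2% (11 to 13.5%).

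Depth moved with membership. Cells with Myog held a median of 13160 UMIs and 2462 genes, against 10724.5 UMIs and 2169.5 genes in cells at 0. Over 10 depth classes of near-equal size, the share with Myog ran from 37.7% (32.1 to 43.5%) in the shallowest class, at a median of 5255.5 UMIs, to 75.2% (69.8 to 80.0%) in the deepest, at 31300.5 UMIs. The share with 5 or more Myog UMIs followed no such course, lying between 7.14% and 16.7% in all 10 classes. With every cell thinned to 5978 UMIs, which left out 110 cells with Myog and 182 cells at 0, the share with Myog was 34.6% (32.7 to 36.4%). Median mitochondrial shares of the sets were near each other, at 5.70% and 5.74%.

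**Figure D1:**
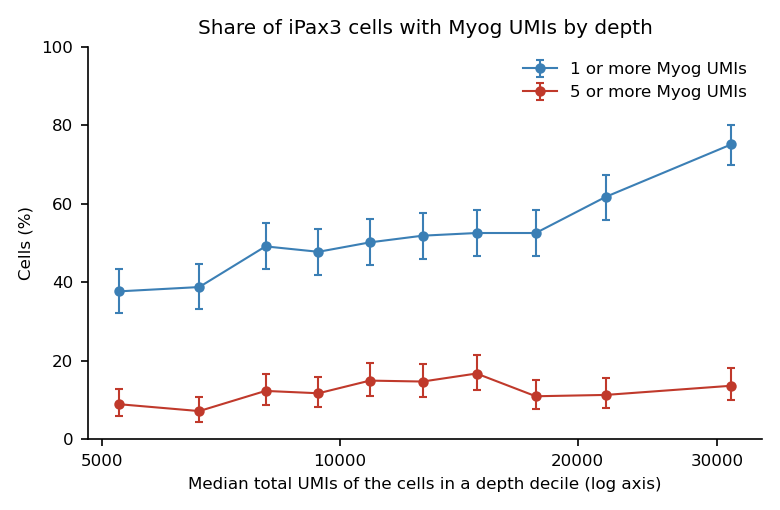
Share of iPax3 cells (y axis, percent of cells) with at least 1 and at least 5 Myog UMIs in 10 depth classes, placed at the median total UMIs of each class (x axis, log scale), with exact 95% binomial intervals. The share with at least 1 UMI runs from 37.7% to 75.2%, while the share with at least 5 stays between 7.14% and 16.7%.

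Free transcripts also carried Myog. Barcodes with 1 to 100 UMIs, which stand for droplets without a cell, held 270 Myog UMIs among 2164067, or 125 CPM (110 to 141), whereas in the adult library the same kind of barcode held 8.15 CPM. Cells with exactly 1 Myog UMI held 62.3 Myog CPM and cells with 5 or more held 579 CPM. The muscle transcripts that members carried were also abundant in these droplets, among them Mylpf at 1083 CPM and Acta1 at 258 CPM. The level of free transcripts inside the cells was not measured, and its part in the counts of 1 was not tested.

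The second iPax3 matrix did not give independent cells. All 2931 cells were found in it under their own barcodes, with a median of 3.47 times as many UMIs, and 98 of 7206682 gene entries were lower than in the first matrix. The same file also held all 579 adult cells. Its extra molecules, 103238280 UMIs that the choice of cells did not use, therefore show the same cells again. In the deeper counts 2858 of 2931 cells (97.5%) held Myog, and of the 1414 cells at 0 in the first matrix, 73 stayed at 0. A cell at 0 is thus a cell in which no Myog molecule was counted at the depth of the first matrix, not one shown to lack the transcript.

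The extra molecules kept the order of the cells by Myog. Cells at 0, 1, 2 to 4 and 5 or more Myog UMIs in the first matrix held 125, 157, 401 and 1064 Myog CPM among their extra molecules. The median cell of each class had 3, 5, 12 and 34 extra Myog UMIs. In the class of 5 or more, the lowest cell had 5 and the highest 128, and all 358 cells had some. Cells with 1 UMI thus lay close to cells at 0, while those with 5 or more stood far above both. Levels among the extra molecules cannot be set against those of the first matrix, since the molecules differed in makeup: over all cells Myog stood at 124 CPM in the first matrix and 297 CPM among the extra molecules.

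The 4 genes that mark the cells were checked first. Myog (ENSMUSG00000026459, GRCm38 chromosome 1, 134289989 to 134292548) is set by the rule. Mylpf (ENSMUSG00000030672, chromosome 7, 127208890 to 127214298), the regulatory light chain of fast myosin, stood at 1094 CPM in cells with Myog and 237 CPM in cells at 0, a ratio of 4.62 (4.47 to 4.77). Acta1 (ENSMUSG00000031972, chromosome 8, 123891769 to 123894751), skeletal muscle actin, stood at 297 and 75.4 CPM, a ratio of 3.94 (3.71 to 4.18). Tnnt3 (ENSMUSG00000061723, chromosome 7, 142498836 to 142516009), fast skeletal troponin T, stood at 410 and 134 CPM, a ratio of 3.06 (2.93 to 3.2). All 3 were several times higher in the cells with Myog, and all 3 were also present in cells at 0.

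The excess was small in cells with 1 Myog UMI and larger in cells with more. Mylpf stood at 237, 331, 1050 and 2635 CPM in cells with 0, 1, 2 to 4 and 5 or more Myog UMIs. Acta1 stood at 75.4, 115, 302 and 641 CPM in the same order, and Tnnt3 at 134, 164, 396 and 909 CPM. Only the class of 5 or more stood above the empty droplets for Mylpf and Tnnt3, which held them at 1083 and 431 CPM.

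**Figure D2:**
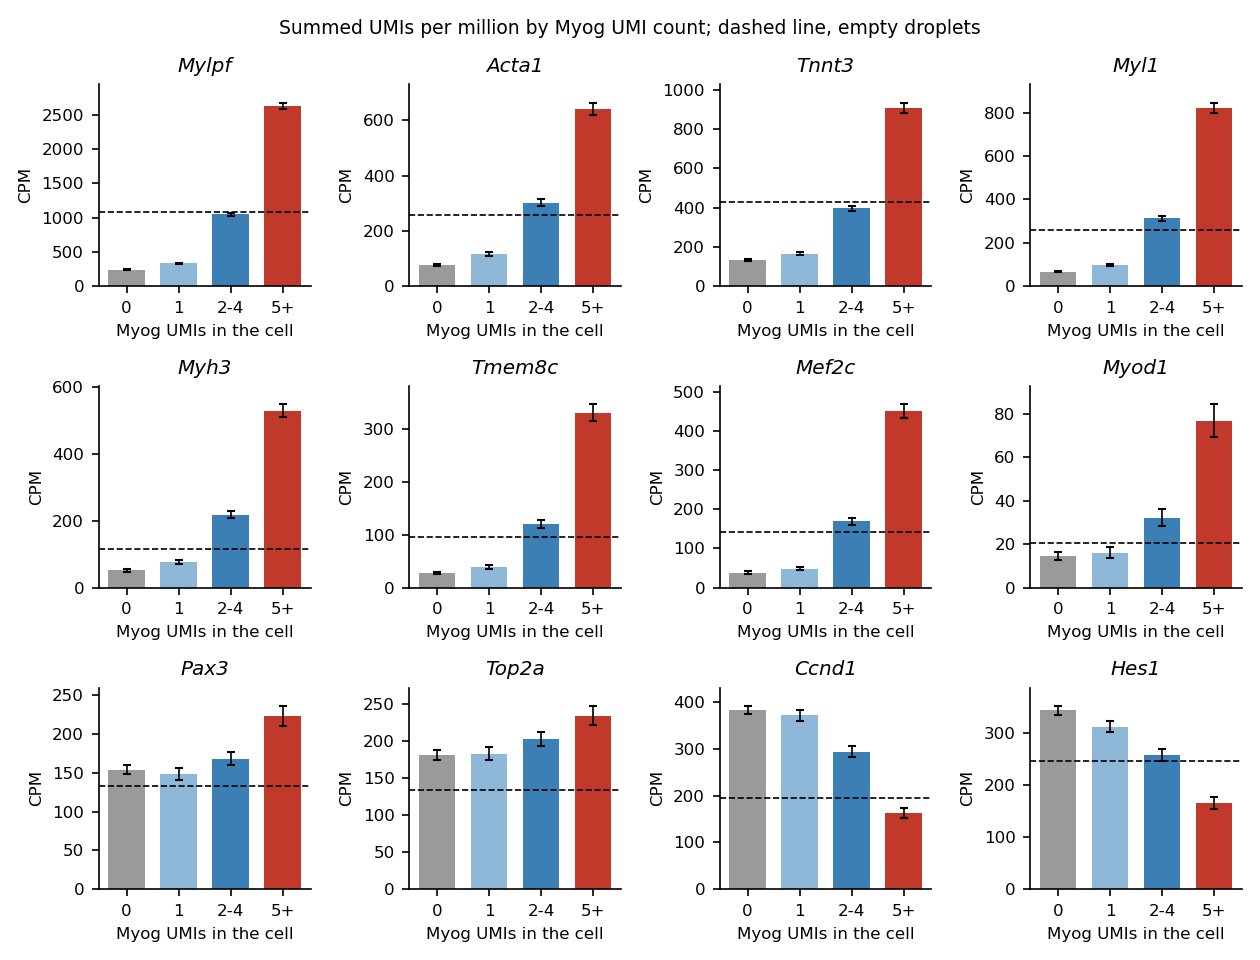
CPM (y axes, from 0) of 12 genes over cells with 0, 1, 2 to 4 and 5 or more Myog UMIs (x axes), with exact 95% counting intervals as error bars and the level in empty droplets as a dashed line. Mylpf climbs from 237 to 2635 CPM across the classes, Pax3 from 154 to 223 and Top2a from 181 to 235 CPM, and Ccnd1 goes from 383 to 163 CPM.

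Of 3584 genes with enough UMIs (at least 50 in the compared sets together and 20 CPM in the higher set, Myog left out), 63 were at least 2-fold higher in cells with Myog (1.76%) and 0 were at least 2-fold lower (0%). For cells with 5 or more Myog UMIs against cells at 0, 225 of 3796 genes were at least 2-fold higher (5.93%) and 101 at least 2-fold lower (2.66%). On either side of the threshold itself, cells with exactly 1 Myog UMI against cells at 0 gave 0 of 3490 genes at 2-fold either way (0% higher and 0% lower). In the extra molecules, 39 of 4524 genes were at least 2-fold higher in cells with Myog (0.862%) and 0 lower (0%). A gene below 20 CPM in cells at 0 enters this count only by being higher in cells with Myog, so its direction is set by the filter, and 185 of the 3584 genes were of that kind. Of 3270 genes at 20 CPM or more in both sets, 30 were at least 2-fold higher in cells with Myog (0.917%) and 0 lower (0%), and in the cells with 5 or more 74 of the same genes were at least 2-fold higher (2.26%) and 82 at least 2-fold lower (2.51%). Counts and medians of gene lists are therefore given over these 3270 genes. The 63 genes became 38 when cells were limited to under 5% mitochondrial UMIs, and 0 when 3 clusters rich in Mylpf, described below, were left out.

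The 12 abundant genes with the largest ratios, at 100 CPM or more in the higher set, were nearly all parts of the contractile machine or of the switch to it. Of these only Mylpf, Actc1, Tnnc2 and Acta2 stood at 100 CPM or more in cells at 0. The others entered only by being higher in cells with Myog, so their direction was set by that minimum. Myl1, an essential light chain of fast myosin, led them at 333 against 66.5 CPM (ratio 5.0, 4.70 to 5.33). Tmem8c, the older symbol of the fusion protein myomaker, followed at 132 against 27.5 CPM (4.80, 4.36 to 5.30), and Mef2c, a MADS-box partner of the myogenic factors, at 180 against 38.5 CPM (4.67, 4.31 to 5.07). The others were Mylpf, Acta1, cardiac actin Actc1 (4.60), the troponins Tnni1 (4.56), Tnnc2 (4.50) and Tnni2 (4.10), embryonic myosin heavy chain Myh3 (4.42), the peptide hormone gene Sct (3.83) and Acta2 (3.78), the actin of smooth muscle that early skeletal muscle cells also make. Against cells at 0, the cells with 5 or more Myog UMIs had higher ratios for all 12, from 8.50 for Acta1 to 12.4 for Actc1. In the extra molecules the ratios of these 12 genes lay between 1.67 (Myh3) and 3.15 (Myl1), in each case above 1 and below the value from the first matrix.

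Of 7 differentiation regulators at 20 CPM in both sets, 2 were at least 2-fold higher, Mef2c and myostatin Mstn, a muscle growth inhibitor, at 208 against 56.0 CPM (3.70). The list's median was 0.58 on the log2 scale against 0.00 over all 3270 genes, and 6 of the 7 were at least 2-fold higher in the cells with 5 or more Myog UMIs. Regulators below 20 CPM in cells at 0, measured only by being higher in cells with Myog, included Smyd1, a methyltransferase of sarcomere assembly, at 23.6 against 4.76 CPM (ratio 4.95). Others were the small heat shock protein gene Hspb2 (4.16) and Klhl40, which stabilises thin filament proteins (3.19). Ankrd1, a muscle ankyrin repeat protein, had the smallest ratio of the 7, at 108 against 131 CPM (0.82, 0.78 to 0.87). Below 20 CPM in both sets, Fbxo32 had a smaller ratio, at 4.18 against 6.19 CPM (0.67, 0.51 to 0.89).

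The determination factors differed from one another. Myod1 (ENSMUSG00000009471, chromosome 7, 46376474 to 46379099), the master regulator of myoblast commitment, stood at 35.1 against 14.4 CPM (2.44, 2.11 to 2.82) and reached 76.6 CPM in cells with 5 or more Myog UMIs. Myf5 (ENSMUSG00000000435, chromosome 10, 107482908 to 107486134), the earliest factor of the family, stood lower, at 12.7 against 16.1 CPM (0.79, 0.67 to 0.93), and at 7.45 CPM in the cells with 5 or more. Pax3 (ENSMUSG00000004872, chromosome 1, 78101267 to 78197134), whose counts do not separate an inducing copy from the cell's own gene, stood at 172 against 154 CPM (1.12, 1.07 to 1.17) and at 223 CPM in the cells with 5 or more. Pax7 gave 2 UMIs in all cells together. E proteins, the partners of myogenin, were level over all cells with Myog. Tcf3 had a ratio of 1.1 (0.96 to 1.27), Tcf12 of 1.1 (0.97 to 1.23) and Tcf4 of 0.99 (0.90 to 1.08). Of the E protein antagonists, Id2 stood at 0.97 (0.87 to 1.08) and Id1 at 1.09 (0.96 to 1.23). In the cells with 5 or more Myog UMIs, Id2 stood at 0.70 (0.57 to 0.86), Id1 at 1.30 (1.09 to 1.56) and Tcf12 at 1.25 (1.05 to 1.49). Tcf3 (1.14), Tcf4 (1.03) and Id3 (1.03) had intervals there that included 1.

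Myosin and thin filament genes had the largest list medians. All 3 myosin and thick filament genes at 20 CPM in both sets, Myl1, Mylpf and Myh3, were at least 2-fold higher (median log2 ratio 2.21). Of 12 such actin, troponin, tropomyosin and thin filament genes, 9 were at least 2-fold higher (median 1.78), and the tropomyosin genes Tpm2 (1.72), Tpm1 (1.45) and Tpm3 (0.92) were the 3 that were not. Of 7 Z disc and linker genes, 2 were at least 2-fold higher (median 0.41), desmin Des (3.42) and titin Ttn (3.28). In the cells with 5 or more Myog UMIs the 2-fold counts over the same genes were 3 of 3, 11 of 12 and 3 of 7. Below 20 CPM in cells at 0 lay Myl4, an embryonic light chain, at 68.5 against 13.9 CPM (4.93, 4.31 to 5.67), and nebulin Neb, the ruler of the thin filament, at 36.6 against 7.28 CPM (5.03, 4.17 to 6.11).

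Of 3 genes that couple excitation to contraction and stood at 20 CPM in both sets, 0 passed 2-fold (median log2 ratio 0.16), with the calcium pump gene Atp2a2 at 1.39 (1.27 to 1.54). Genes of this list below 20 CPM in cells at 0 had larger ratios, among them Stac3, a partner of the voltage sensor (21.3 against 4.59 CPM; 4.63, 3.65 to 5.94), the pump gene of fast fibres Atp2a1 (4.04), Jsrp1 (3.74) and the calcium release channel gene Ryr1 (2.94), but genes as low that were not higher could not be measured. Of the acetylcholine receptor genes, the subunits Chrna1 and Chrng each had a ratio of 1.77. Rapsn, which anchors the receptor, stood at 38.7 against 15.1 CPM (2.57), and being below 20 CPM in cells at 0 it was measured only by being higher. Of 5 muscle energy genes at 20 CPM in both sets, 3 passed 2-fold (median 1.24): the muscle isoform of phosphoglycerate mutase Pgam2 (3.06), the cytochrome oxidase subunit gene Cox8b (3.18) and Gamt, an enzyme of creatine synthesis (2.36).

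The fusion list split. Of its muscle-specific fusogens, Tmem8c is given above, and Gm7325, the older symbol of myomixer, stood at 91.9 against 16.7 CPM (5.51, 4.87 to 6.24). Gm7325 lay below 20 CPM in cells at 0, so it was measured only by being higher in cells with Myog. Of 11 fusion and adhesion genes at 20 CPM in both sets, Tmem8c was the 1 at 2-fold or more, and the list's median was -0.12. The myoblast cadherin gene Cdh15 stood at 1.35 (1.25 to 1.46), while N-cadherin Cdh2 stood at 0.77 (0.71 to 0.84), reaching 0.44 in the cells with 5 or more Myog UMIs.

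Cell cycle lists stayed near a ratio of 1. Of 24 mitosis genes and 19 DNA replication genes at 20 CPM in both sets, 0 were at 2-fold either way (medians 0.04 and 0.00). Top2a, the topoisomerase of dividing cells, stood at 181, 183, 203 and 235 CPM in cells with 0, 1, 2 to 4 and 5 or more Myog UMIs. The D cyclins parted: Ccnd1 stood at 383, 372, 294 and 163 CPM over the same classes and Ccnd2 at 586, 583, 449 and 252 CPM, whereas Ccnd3, the D cyclin that differentiating muscle retains, stood at 227, 246, 306 and 494 CPM. Of 9 such CDK inhibitor and cell cycle exit genes, 0 passed 2-fold in cells with Myog. Cdkn2a, which encodes p16 and p19, was lower at 323 against 397 CPM (0.81, 0.79 to 0.84), and Cdkn2b had a ratio of 0.80 (0.72 to 0.89). In the cells with 5 or more Myog UMIs, 1 of the 9 was at least 2-fold higher, Ccnd3 (2.17), and 1 at least 2-fold lower, Cdkn2b (0.37). In the same cells Btg1 had a ratio of 1.87 (1.66 to 2.09), Cdkn1a of 1.04 and Cdkn2a of 0.52. Cdkn1c stood at 20.5 CPM there against 6.54 CPM in cells at 0 (3.14, 2.39 to 4.11), so it was measured only by being higher.

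The 12 abundant genes with the smallest ratios were mixed in function, and none reached 2-fold lower. Of these, Tmem245, Prss23, Basp1 and Ifitm3 reached 100 CPM only in cells at 0, so their direction was set by that minimum. Tmem245 had the smallest ratio, at 83.6 against 122 CPM (0.68, 0.64 to 0.73), and at 81.1 CPM in the cells with 5 or more Myog UMIs. Cox6b2 (0.70), caldesmon Cald1 (0.73), the Notch effector Hes1 (0.76), Ldhb (0.76), Prss23 (0.76), Basp1 (0.77), Ifitm2 (0.77), Ccnd1 (0.78), Npnt (0.78), Ifitm3 (0.78) and annexin Anxa1 (0.78) completed them. Hes1, a repressor that holds progenitors undifferentiated, stood at 343, 312, 257 and 165 CPM in cells with 0, 1, 2 to 4 and 5 or more Myog UMIs. Hes6, which opposes Hes1, went the other way, at 92.3, 99.2, 173 and 360 CPM. Anxa1 had the lowest ratio of the 12 in the cells with 5 or more, at 0.31 (0.27 to 0.36).

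Over all cells with Myog, matrix, epithelial and imprinted genes lay closer to a ratio of 1. Of 12 extracellular matrix genes at 20 CPM in both sets, 0 passed 2-fold in cells with Myog (median -0.19), and 3 were at least 2-fold lower in the cells with 5 or more (median -0.84), among them the basement membrane collagen genes Col18a1 (0.41) and Col4a2 (0.45). The keratin genes Krt8 (0.79, 0.76 to 0.82) and Krt18 (0.84, 0.81 to 0.88) and the mesothelial antigen gene Msln (0.85, 0.79 to 0.91) were lower, and in the cells with 5 or more their ratios were 0.41, 0.42 and 0.47. Of 11 genes of the IGF axis and imprinted genes, 0 passed 2-fold (median 0.03), and they went both ways. In the cells with 5 or more, 3 of the 11 were at least 2-fold higher (median 0.11), Nnat (3.35), Igf2 (3.34) and Meg3 (2.39), and 0 were 2-fold lower. In all cells with Myog the ratios of these genes were smaller. Nnat stood at 689 against 366 CPM (1.88, 1.83 to 1.94), the growth factor Igf2 at 117 against 65.3 CPM (1.79, 1.67 to 1.92) and the noncoding RNA Meg3 at 619 against 428 CPM (1.44, 1.4 to 1.49), whereas Plagl1 had a ratio of 0.87 (0.85 to 0.90) and Igfbp5 of 0.78 (0.72 to 0.84). Of 22 lists with at least 3 genes at 20 CPM in both sets, 4 had a median log2 ratio of 1 or more. Housekeeping lists stayed near 0: 20 ribosomal protein genes had a median of -0.02 and 21 oxidative phosphorylation genes of -0.01.

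**Figure D3:**
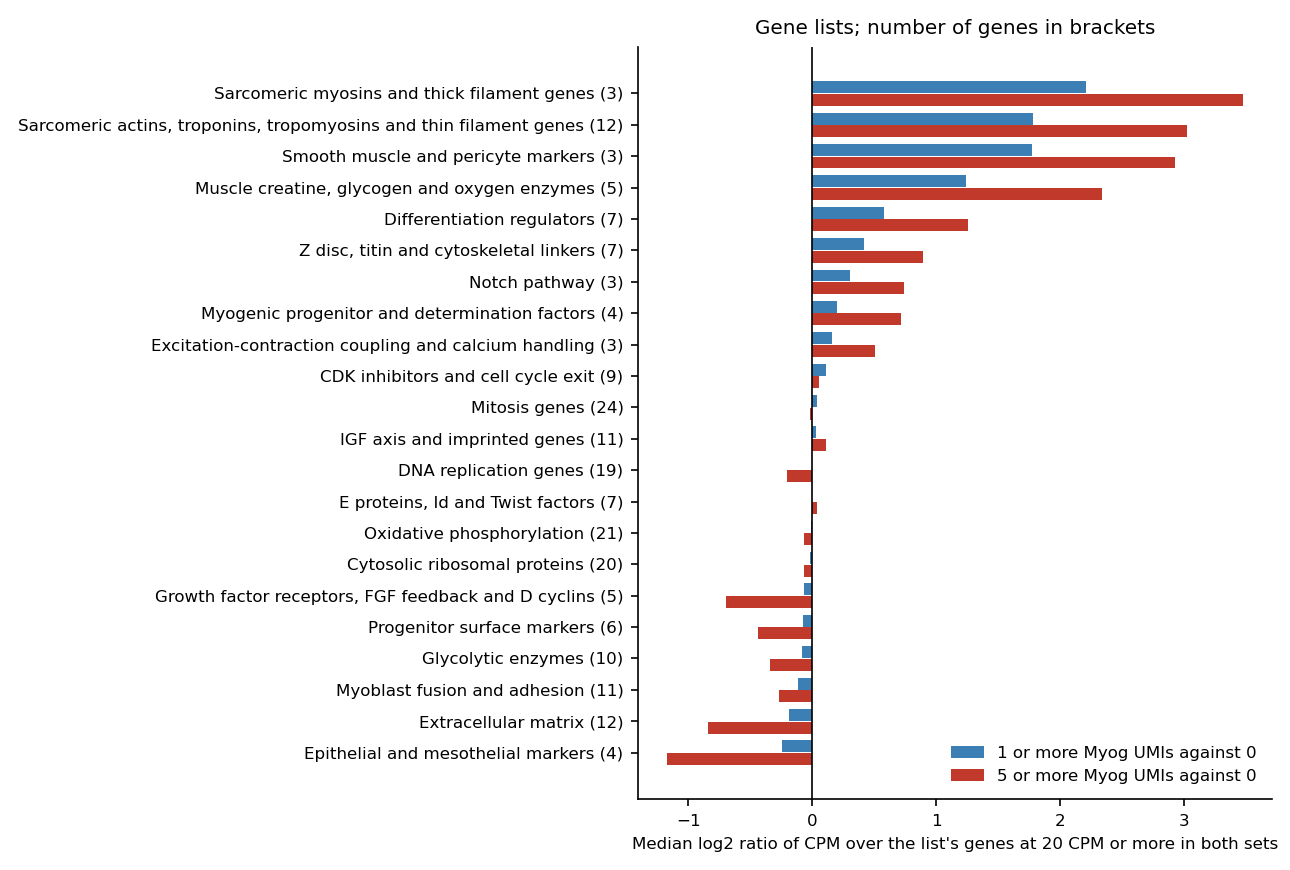
Median log2 ratio of CPM to cells at 0 Myog (x axis) over the genes at 20 CPM or more both in cells with Myog and in cells at 0, in 22 lists (y axis, with the number of genes in brackets), for cells with at least 1 and at least 5 Myog UMIs. Myosin genes lie at 2.21 and thin filament genes at 1.78 in cells with 1 or more, and mitosis and ribosomal genes lie near 0.

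Markers of other cell types ranged from absent to abundant. Nanog, Sox2, Kdr, Ptprc, Tyrobp, Lum, Myh11, Nppa and Sox10 had 0 UMIs in the 2931 cells, which allows up to 0.0721 CPM (3 UMIs of all UMIs), and the epithelial marker Epcam had 1 UMI in cells with Myog and 4 in cells at 0. Summed over each list in cells with Myog against cells at 0, pluripotency markers stood at 2.89 against 2.64 CPM (9 of 14 genes at 0 UMIs), endothelial markers at 13.6 against 14.45 CPM (7 of 12 at 0), leukocyte and erythroid markers at 4.30 against 4.30 CPM (8 of 12 at 0), neural markers at 13.0 against 15.4 CPM (4 of 16 at 0) and cardiac markers at 10.9 against 11.6 CPM (3 of 16 at 0). Fibroblast, tendon and cartilage markers stood at 158 against 157 CPM, most of it Ly6a (99.7 and 99.3 CPM) and Tcf7l2 (41.8 and 39.2 CPM). The fibroblast markers Dcn (0.165 and 0.115 CPM) and Pdgfra (0 and 0.115 CPM) were nearly absent. Epithelial and mesothelial markers stood at 551 against 670 CPM, most of it Krt8 (256 and 324 CPM) and Krt18 (178 and 211 CPM). Smooth muscle and pericyte markers stood at 833 against 268 CPM, of which Acta2 gave 573 and 152 CPM and Des, shared with the Z disc list, 196 and 57.5 CPM. Myh11, the defining smooth muscle myosin, was at 0.

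The share of cells with a muscle transcript was compared at 1 depth, after thinning to 5978 UMIs. Tmem8c was counted in 42.8% of cells with Myog and 12.7% of cells at 0, against 62.7% and 25.5% without thinning. Mef2c was counted in 46.5% and 19.2%, Myh3 in 50.1% and 23.8%, and Gm7325 in 31.0% and 9.0%. Mylpf was counted in 82.2% and 68.3%, a smaller gap than that of its level. Ccnd1 was counted in 68.1% of cells with Myog and 80.0% of cells at 0. In the cells with 5 or more Myog UMIs the thinned shares were 81.9% for Tmem8c, 70.2% for Gm7325, 97.0% for Mylpf and 51.2% for Ccnd1.

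Cell by cell, the contractile transcripts showed a mixture. The 20 measured myosin and thin filament genes were summed per cell and given per 10000 UMIs of the cell. Of the 16 thin filament genes, 4 (Neb, Actn2, Tmod1 and Cap2) lay below 20 CPM in cells at 0, as did Myl4 of the 4 myosin genes. These entered the sum only by being higher in cells with Myog, so part of the gap between the classes follows from the filter. The median was 26.4 in cells at 0 Myog, 27.5 in cells with 1 UMI, 50.6 in cells with 2 to 4 and 166 in cells with 5 or more. The 95th percentile of cells at 0 was 43.6, and it was passed by 66 of 646 cells with 1 UMI (10.2%), 273 of 513 cells with 2 to 4 (53.2%) and 339 of 358 cells with 5 or more (94.7%). Over all members 678 of 1517 (44.7%) passed it. In cells with 2 to 4 UMIs the quartiles, 29.1 and 147, lay far apart. Summed mitosis transcripts had medians of 16.9, 16.7, 17.5 and 14.3 per 10000 UMIs over the same classes, with ranges that overlapped broadly.

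**Figure D4:**
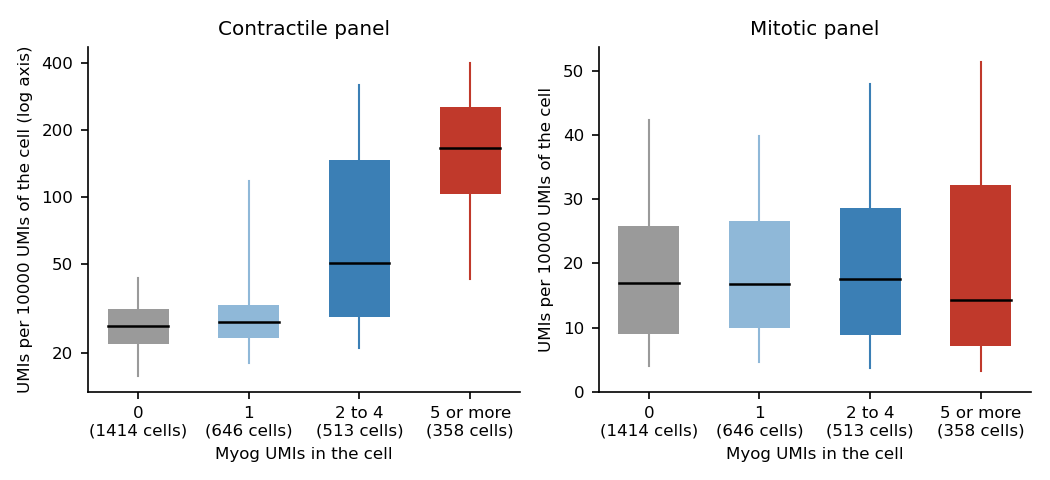
UMIs of 20 contractile genes (left, log axis) and 24 mitosis genes (right) per 10000 UMIs of a cell, by Myog UMIs in the cell (x axes). The contractile genes Neb, Actn2, Tmod1, Cap2 and Myl4 entered only by being higher in cells with Myog. Boxes span the quartiles, thick lines are medians and thin lines run from the 5th to the 95th percentile; contractile medians go from 26.4 to 166, and mitotic medians stay between 14.3 and 17.5.

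Clusters were made from the same cells with Myog left out of the genes used, and are called by number. Of 9 clusters, 3 held Mylpf above 500 CPM: cluster 7 (led by Neb, Mstn and Tnnc2), cluster 8 (led by Myog, Actc1 and Sept4) and cluster 9 (led by Mylpf, Myl4 and Myl1). These held 676 cells, of which 633 (93.6%, 91.5 to 95.4%) had a Myog UMI, and 324 of the 358 cells with 5 or more. The other 6 clusters, where Mylpf lay between 190 and 238 CPM, held 2255 cells, of which 884 (39.2%, 37.2 to 41.3%) had a Myog UMI. More than 1 in 2 of the members, 58.3%, thus lay outside the clusters rich in Mylpf, and 592 of the 646 cells with a single Myog UMI lay there. The rule therefore took in cells of the clusters rich in Mylpf and cells outside them, most with 1 Myog UMI, whose contractile transcripts lay near those of cells at 0.

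The lowest share of cells with Myog after thinning was in cluster 2, led by Mgarp and the keratin gene Krt18, at 14.8% (10.51 to 19.9%). Before thinning it was 40.0%, at a median of 18416 UMIs per cell, against a median of 10026.5 UMIs in the clusters rich in Mylpf. Among the 6 clusters low in Mylpf, the thinned share reached 31.7% (24.6 to 39.5%) in cluster 3, led by Tac4, Igfbp5 and Mgp, where Myog stood at 84.3 CPM against 30.5 CPM in cluster 2. In clusters 7, 8 and 9 it was 83.8%, 86.0% and 88.6%. Mylpf separated cluster 8, at 820 CPM, from clusters 7 and 9, at 2744 and 3931 CPM, while Myog stood at 409, 430 and 505 CPM in clusters 8, 7 and 9. Top2a stood at 484 CPM in cluster 7, 238 CPM in cluster 8 and 73.8 CPM in cluster 9.

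**Figure D5:**
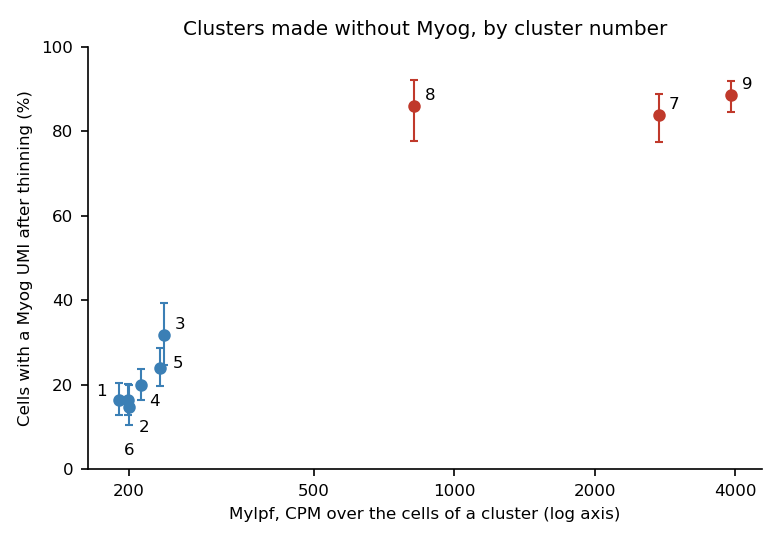
Share of cells with a Myog UMI after thinning (y axis, percent, with exact 95% intervals) against Mylpf CPM (x axis, log scale) in 9 clusters made without Myog, shown by number. Clusters 7, 8 and 9 lie at 83.8 to 88.6%, and the other 6 lie at 14.8 to 31.7% with Mylpf between 190 and 238 CPM.

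Inside the clusters rich in Mylpf, cells at 0 Myog held the muscle transcripts as well. The 43 cells there at 0 Myog UMIs held Mylpf at 2544 CPM, close to the 2538 CPM of the 54 cells with 1 UMI and below the 2930 and 3083 CPM of cells with 2 to 4 and 5 or more. They were shallow, with a median of 7846 UMIs against 11881.5 UMIs in the 324 cells with 5 or more. All 43 had Myog among their extra molecules, at 452 CPM, against 118 CPM in the 1371 cells at 0 in the other clusters. Outside these clusters the reverse held for cells with 1 UMI: the 592 such cells held Mylpf at 207 CPM and Tmem8c at 25.6 CPM, against 191 and 23.5 CPM in cells at 0. The 34 cells outside with 5 or more Myog UMIs lay between, with Mylpf at 471 CPM, Myod1 at 57.6 CPM and Ccnd1 at 365 CPM. Their Ccnd1 was near the 389 CPM of cells at 0 outside and above the 122 CPM of the cells with 5 or more inside. These 34 cells were deep, with a median of 18233 UMIs against 10868 UMIs in cells at 0 outside. No doublet caller was run.

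Set against cells at 0 within the 6 clusters low in Mylpf, cells with Myog had smaller ratios than over all cells. These clusters were set apart by their Mylpf level, so a small gap in Mylpf, and in genes that go with it, follows in part from that choice. Mylpf stood at 228 against 191 CPM (1.19, 1.14 to 1.25), Acta1 at 68.3 against 63.1 CPM (1.08, 0.99 to 1.18), Mef2c at 44.4 against 32.1 CPM (1.38, 1.24 to 1.55) and Tmem8c at 31.8 against 23.5 CPM (1.35, 1.19 to 1.54). Pax3, higher in cells with Myog over all cells, was lower there, at 131 against 150 CPM (0.88, 0.83 to 0.93). As a fraction of their level in empty droplets, muscle genes in these clusters stood at 0.193 for Mylpf, 0.255 for Acta1, 0.350 for Myog, 0.543 for Des, 0.648 for Ttn and 0.748 for Myod1. The part of free RNA in these levels was not tested.

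Within the 358 cells with 5 or more Myog UMIs, the amount of contractile transcripts went with other genes. The cells were ordered by their summed contractile UMIs and split into ranges of 120, 119 and 119 cells. From the lowest to the highest range, Myog stood at 436, 659 and 727 CPM, Mef2c at 210, 499 and 798 CPM and Tmem8c at 165, 384 and 552 CPM. Top2a stood at 273, 265 and 138 CPM and Ccnd1 at 235, 117 and 94.6 CPM, and the summed mitosis transcripts had medians of 21.2, 18.6 and 8.11 per 10000 UMIs. Pax3 stood at 146, 242 and 332 CPM, so the cells with the most contractile transcripts held the most Pax3. Myod1 showed no steady course, at 73.5, 67.2 and 91.8 CPM. Depth moved with the ranges too, with medians of 15698.5, 12005 and 11015 UMIs.

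The authors' deposited table of 7 clusters of iPax3 cells gives a mean UMI count per cell in each cluster. In the authors' deposited table Myog stood at 5.68 in cluster 1 and between 0.405 and 0.901 in the other 6 clusters. Mylpf stood there at 38.3 against 2.30 to 3.05, Acta1 at 10.4 against 0.742 to 0.878, and Tnnt3 at 12.4 against 1.26 to 2.06. Pax3 was also highest in that cluster of the authors' deposited table, at 3.12 against 1.28 to 2.52.

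In the adult library 30 of 579 cells (5.18%, 3.52 to 7.31%) held a Myog UMI, with 42 UMIs in all and 12 in the highest cell. They were deeper than the rest, with a median of 16935.5 UMIs against 10339 in adult cells at 0. Contractile transcripts did not set them apart: Acta1 stood at 277 against 294 CPM (0.94, 0.80 to 1.1) and Mylpf at 178 against 184 CPM (0.97, 0.79 to 1.18). Tmem8c had 0 UMIs in the adult cells. Myod1 stood lower in the adult cells with Myog, at 140 against 223 CPM (0.63, 0.50 to 0.78). Over all iPax3 cells with Myog it was higher, but in those with 1 UMI its ratio was 1.11. Myog stood at 66.1 CPM in the adult cells with Myog, against 213 CPM in all iPax3 cells with Myog and 62.3 CPM in those with 1 UMI. These Myog levels follow in large part from the rule, which set at least 1 UMI per cell, and from depth. The adult cells with Myog were not matched to all iPax3 members in Myog level. Among iPax3 cells with 1 UMI, 0 of 3490 genes passed 2-fold against cells at 0. Empty droplets of the adult library held Myog at 8.15 CPM, and their part in these counts was not tested. The difference between the libraries was not tested, and each library is 1 sample.

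Bulk libraries of the same kind of culture also held these transcripts. Myog stood at 98.0, 73.5 and 29.7 CPM in iPax3 replicates 1, 2 and 3, in the library labelled iPax7 replicate 1 at 1.56 CPM, and in iPax7 replicates 2 and 3 at 600.2 and 573 CPM. The spread between replicates was therefore wide in both groups. Acta1 stood at 48.0, 35.5 and 1.39 CPM and Tmem8c at 6.13, 7.53 and 0.412 CPM in the 3 iPax3 libraries, so the library labelled iPax3 replicate 3 was lowest for all 3 genes. Tnnt3 went against that order, at 93.2, 57.7 and 159 CPM. Among tissue libraries Myog ran from 119 to 749 CPM in embryonic myoblasts, from 318 to 697 CPM in fetal myoblasts and from 81.0 to 188 CPM in neonatal satellite cells. The fetal library at 697 CPM had 516504 counts in all, the fewest of the 15, and the iPax3 library of replicate 1 had the most, 56275318. In bulk, fewer cells of a type and less RNA per cell cannot be told apart.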

How the data were processed

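Droplet single-cell RNA libraries (10X Genomics Chromium 3' kit, per the labels) covered iPax3 cells and adult satellite cells, and bulk RNA libraries covered 15 samples. Per the submitters' processing notes, Cell Ranger 2.2.0, HISAT2 2.0.2, featureCounts 1.4.6 and CASAVA 1.8 were used with build mm10. The deposited matrices hold UMI counts per gene and barcode, and the deposited bulk files hold read counts per gene. The authors' deposited cluster table gives for each of 7 clusters a signal (its cells' average of UMIs for a gene), a log2 fold change and a p-value, per the file headers, and its p-values over cells were not used.

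Cells had at least 10% of the 99th percentile of UMIs of the 3000 largest barcodes (4586 UMIs here), at least 500 UMIs, and under 10% mitochondrial UMIs. Members held at least 1 Myog UMI. UMIs were summed over cells, and a ratio of CPM carries an exact conditional binomial interval. Thinning drew each cell to 5978 UMIs, the 10th percentile, without replacement. Clusters were made in scanpy 1.11.5 (2000 variable genes without Myog, 20 components, 15 neighbours, Leiden resolution 1). No doublet caller was run, and an alternative left out the cells above the 95th percentile of UMIs. The ratios were tested on simulated counts. Python 3.11.15, numpy 2.4.6, scipy 1.17.1 and pandas 2.3.3 were used. Of 28692 gene identifiers, 28339 matched GENCODE M21, which gave positions.

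Genes named were Myog, Acta1, Mylpf, Tnnt3, Myod1, Myf5, Pax3 and Pax7, the 12 largest and 12 smallest ratios among genes with at least 100 CPM in the higher set (predicted genes, pseudogenes and mitochondrial genes left out), and up to 6 genes farthest from a ratio of 1 in each of 30 lists. The members and the lists were chosen with earlier results of these data known. The split at 5 Myog UMIs, the use of the extra molecules of the second matrix, the minimum of 20 CPM in both sets and the removal of clusters were chosen after the data were seen.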

Additional observations from a re-analysis of the deposited data

How the results depend on the processing

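All single-cell results rest on 1 library, so leaving out a replicate was not possible. No paired analysis was possible because the result comes from no test and the single-cell groups share no replicate number of independent libraries. Counting depth limits the choice of members, as the share of cells with Myog shows. That share, 51.8% as reported, was 56.4% with the minimum of UMIs doubled, 34.6% with members chosen after thinning, 29.7% with at least 2 and 12.2% with at least 5 Myog UMIs, 97.5% by the deeper counts of the same cells, 39.2% without the clusters of high Mylpf, and 88.1% in 396 barcodes of the second matrix outside the cells of the first, which had a median of 19410.5 UMIs.

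The 63 genes at least 2-fold higher became 38 under 5% mitochondrial UMIs, 129 with members chosen after thinning, 121 with at least 2 and 225 with at least 5 Myog UMIs, 124 in the barcodes outside the first cells, 491 at a minimum of 20 UMIs with no CPM minimum, 24 at 200 UMIs and 100 CPM, 39 in the extra molecules, 15 by the deeper counts, 30 among genes at 20 CPM or more in both sets and 0 without the clusters of high Mylpf. The 0 genes at least 2-fold lower became 4, 2, 101, 13 and 69 with members chosen after thinning, at least 2 Myog UMIs, at least 5, the barcodes outside and the minimum of 20 UMIs, and 2 by the deeper counts. With a minimum of 20 CPM in the higher set alone, 6 lists had a median log2 ratio of 1 or more; these became 1 in the extra molecules, 1 by the deeper counts and 0 without the clusters of high Mylpf. Without those clusters the log2 ratio also changed sign for Trim54 (-0.0068), Myl4 (-0.098), Atp2a1 (-0.20), Tmem38a (-0.24), Cox6a2 (-0.11) and Pgam2 (-0.025), as did the median of the muscle energy list (-0.025). These were at 2-fold or more over all cells. Without those clusters the counting interval of each of these genes included a ratio of 1, among them 0.66 to 1.09 for Tmem38a and 0.91 to 1.06 for Pgam2. They were thus level within counting error rather than shown to be lower. Counting smaller ratios too, 29 of 138 named genes changed sign, among them Pax3 (log2 ratio 0.16 over all cells, -0.19 without those clusters and -0.17 by the deeper counts). Fewer cells were compared there, and otherwise the cause was not tested. For the 12 genes with the largest ratios, log2 ratios stayed above 0 under all alternatives run, from 0.11 (Acta1) to 3.63 (Actc1). These genes were picked for their large ratios in the same cells, which most alternatives used again. A log2 ratio above 0 therefore follows in large part from that choice.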
